A study of Caenorhabditis elegans with 9 samples.

Results

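Transcripts recovered by anti-GFP immunoprecipitation of intestinally expressed HZL-1 were compared with those recovered by the same procedure from animals that expressed GFP alone, in Caenorhabditis elegans dauer larvae without AMP-activated protein kinase. Genes were members of the comparison when the deposited table classed them as protein-coding, when their mean over the 3 HZL-1 libraries and the GFP library was at least 1 FPKM (fragments per gene, corrected for the length of its transcripts and the size of the library), and when at least 1 HZL-1 library listed them above 0. These criteria kept 8617 of the 46904 genes in the table, of which 19645 were protein-coding. Another 14 coding genes met the mean but had 0 FPKM in every HZL-1 library, with 4.22 to 13.6 FPKM in the GFP library.

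All animals were whole hermaphrodites grown at 25 °C and collected at 96 h as dauers, fixed with formaldehyde, and carried a daf-2 mutation. The HZL-1 libraries (3, called replicates 1 to 3) came from animals that also lacked AMPK, a genotype written aak(0) in which aak-1 and aak-2 are mutated, and that were mutant for hzl-1 and carried an extrachromosomal array driving HZL-1 fused to GFP from the nhx-2 promoter. The GFP library (1) came from daf-2; aak(0) animals with an array driving GFP from the same promoter. Its label lists no hzl-1 mutation, so the tagged protein and the hzl-1 genotype cannot be told apart as sources of a difference. Libraries of HZL-1 in daf-2 animals with AMPK (3) entered the fit only as a measure of spread. No input RNA was analysed here, and in whole-animal material fewer cells of a type and less RNA per cell cannot be told apart.

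Dauer is an arrested larval stage in which feeding stops and stored energy is rationed, and AMPK is the sensor that restrains energy use when ATP falls. The insulin/IGF receptor gene daf-2, when impaired, sends larvae into this stage at raised temperature. The nhx-2 promoter is active in the intestine, the main organ of fat storage and of nutrient handling in the worm. In an immunoprecipitation a transcript can be recovered because it was bound by the tagged protein, or because it is abundant and carried along, and GFP alone serves as the control for the latter.

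The libraries were unequal. Gene reads, recovered from a second deposited table, numbered 7151604, 15881823 and 16749641 in replicates 1 to 3, of which 78.87% to 80.52% were ribosomal RNA. How deeply the GFP library was sequenced is unknown. In replicate 1, 5566 members (64.6%) were listed at 0 FPKM, against 199 in replicate 2, 41 in replicate 3 and 143 in the GFP library. Some zeros of replicate 1 stand beside reads, since 99 members listed there at 0 FPKM had over 100 reads, against 0 such members in replicates 2 and 3. Across the 2929 members above 0 in all 4 libraries, log2(FPKM + 1) correlated at Pearson r = 0.97 between replicates 2 and 3 and at 0.42 to 0.46 between replicate 1 and each other library (across genes, which are not independent replicates). Replicate 1 therefore stands apart, and values are given per library.

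The members called higher than GFP (limma adjusted p under 0.05) were 2, argk-1 and hmit-1.1. Arginine kinases transfer phosphate between ATP and arginine and so buffer the cell's ATP, and argk-1 encodes a predicted enzyme of this family. HMIT proteins carry myo-inositol, an osmolyte and a precursor of phosphoinositides, into cells together with protons, and hmit-1.1 is 1 of 3 such genes in the worm.

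The argk-1 transcript (WBGene00009706, WBcel235 chromosome V, 16103894 to 16105950) was listed at 3600.91, 905.28 and 2557.93 FPKM in HZL-1 replicates 1 to 3 and at 1.00 FPKM with GFP. Every HZL-1 library lay far above GFP, replicate 2 being the lowest. On the log2(FPKM + 1) scale the difference was 9.99 ± 0.85 (SE), with a limma adjusted p of 0.00146 (Benjamini-Hochberg over all genes tested, threshold 0.05, as throughout). In FPKM it ranked 1, 5 and 1 among members in replicates 1 to 3 and 8163 with GFP.

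The hmit-1.1 transcript (WBGene00013073, chromosome V, 18516789 to 18523875) was listed at 129.00, 522.79 and 472.87 FPKM with HZL-1 and at 0.35 with GFP. Replicate 1 was the lowest here, so the order of the libraries was not that of argk-1. The difference was 7.88 ± 0.94 (SE) on the log2(FPKM + 1) scale, with a limma adjusted p of 0.00942. It ranked 72, 6 and 6 among members with HZL-1 and 8424 with GFP.

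Together these counts are 2 of 8617 members called higher, where 0.0199% of all 10035 genes tested were called higher, and they are the same 2 genes. Over 21 alternative settings argk-1 stayed past the threshold in 17 and hmit-1.1 in 14, and the sizes ran from 7.53 to 11.19 and from 4.99 to 9.80. Each call rests on a single GFP library that is assumed to vary like the replicated groups. In that library argk-1 was at 1.00 and hmit-1.1 at 0.35 FPKM. Both genes therefore met the minimum mean of 1 FPKM only through the HZL-1 libraries, where they are high, so these 2 calls are a description. The daf-2 HZL-1 libraries, which enter the estimate of spread, listed argk-1 at 0.04, 0 and 0 FPKM and hmit-1.1 at 0 in each. Such near-zero values scatter little and lower the standard errors of both genes. Neither gene passed when only the 4 libraries of the comparison were fitted (limma adjusted p of argk-1 = 0.0617, of hmit-1.1 = 0.0956), with a minimum mean of 5 FPKM, after quantile normalization or without a variance trend. Without replicate 2 the adjusted p of hmit-1.1 was 0.0521. With 3 libraries against 1, an exact permutation test cannot go below 0.25 (one-sided), so none was run on single genes.

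**Figure D1:**
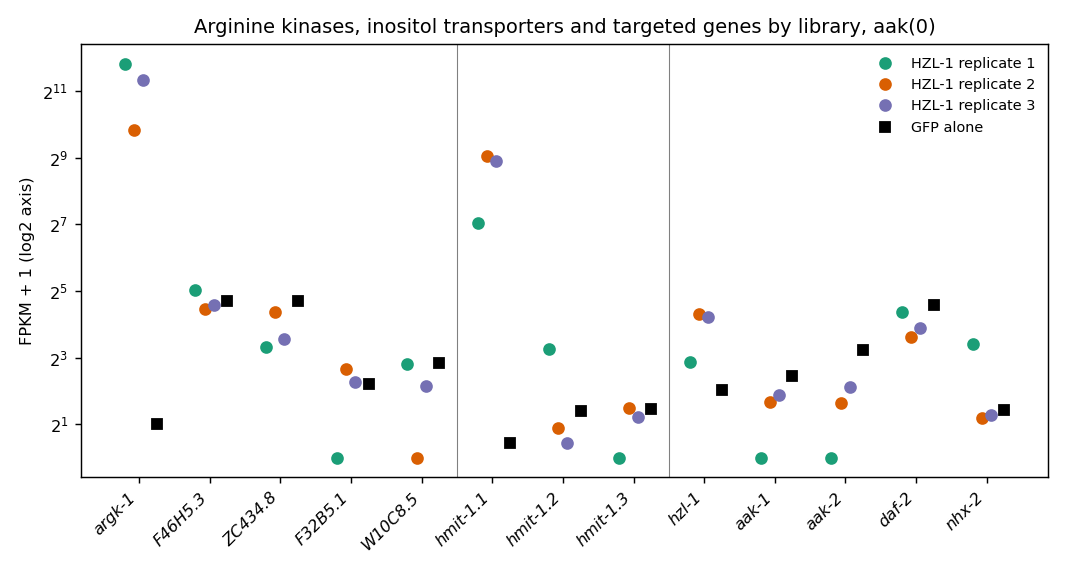
FPKM + 1 on a log2 axis for argk-1 and the other arginine kinase genes, hmit-1.1 and the other HMIT genes, and the targeted and promoter genes, with 1 coloured point per HZL-1 aak(0) library and a black square for the single GFP library. For argk-1 and hmit-1.1 all 3 coloured points lie far above the square, and for their paralogs the points scatter around it.

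Both genes were also covered by many reads. Replicates 1 to 3 held 77709, 39088 and 114884 reads of argk-1, or 1.09%, 0.246% and 0.686% of gene reads (exact 95% binomial intervals 1.079 to 1.094%, 0.2437 to 0.2486% and 0.6819 to 0.6899%). For hmit-1.1 there were 4840, 40018 and 36848 reads, or 0.0677%, 0.252% and 0.22% of gene reads. Such intervals describe counting error alone, because reads lacking molecular identifiers are not separate molecules, and the libraries differed by far more than that. In FPKM, argk-1 made up 4.8%, 1.05% and 2.98% of the sum over all coding genes with HZL-1 and 0.000955% with GFP.

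The paralogs of these genes lay within 2-fold of GFP or below it in replicates 2 and 3. F46H5.3, another arginine kinase gene, stood at 31.48, 20.91 and 22.90 FPKM with HZL-1 against 25.17 with GFP, a difference of -0.03 ± 0.61 (SE) on the log2(FPKM + 1) scale. ZC434.8, of the same family, stood at 8.99, 19.85 and 10.70 against 25.18, below GFP in all 3 libraries. The family members F32B5.1 (0, 5.31 and 3.85 against 3.66) and W10C8.5 (5.96, 0 and 3.41 against 6.10) were near GFP where they were detected. Of the inositol transporters, hmit-1.2 was listed at 8.55, 0.84 and 0.37 FPKM against 1.66, and hmit-1.3 at 0, 1.82 and 1.31 against 1.77. None of these 6 paralogs passed the threshold, their limma adjusted p lying between 0.892 and 0.989. Whether argk-1 differed from each paralog was not tested.

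Genes beside argk-1 and hmit-1.1 on chromosome V were low. Within 20000 bp of argk-1 lie 8 coding genes, of which skr-3 and F22B8.7 were members, and 0 of the 8 lay above GFP in all 3 libraries. The closest, cth-1 at a distance of 1144 bp, encodes a cystathionine gamma-lyase and was listed at 0, 0.14 and 0.16 FPKM against 1.28. The highest value among the 8 was 18.6 FPKM, in replicate 1. The gene hmit-1.2 lies 885 bp from hmit-1.1, and slo-1, a potassium channel gene 8588 bp away, was listed at 0, 0.84 and 0.77 FPKM against 2.2.

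In the library of HZL-1 driven by its own promoter in aak(0) (1 library, counts only), argk-1 and hmit-1.1 had the most reads among coding genes. That library had 8965110 reads of argk-1, 37.3% of its 24035823 gene reads and rank 1 among coding genes. Ribosomal RNA made up 29.96% of its gene reads, against 78.87% to 80.52% in the intestinal HZL-1 libraries. Shares of gene reads are therefore not on a like base. The hmit-1.1 transcript had 303233 reads, 1.26% of gene reads and rank 2. Rank 3 was aak-2, which by FPKM ranked only 3052, 6445 and 5065 among members in intestinal replicates 1 to 3. Ranks by reads, which are not corrected for transcript length, and ranks by FPKM are unlike measures. There is no GFP library in that table, so these are levels and not differences from background.

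Other genes of osmolyte and inositol handling were not called. That list was written with the result for both genes known. Of its 28 genes 15 were members, 2 were called higher (argk-1 and hmit-1.1), and 0 were called lower. The aquaporin gene aqp-2 was at 83.07, 28.95 and 30.15 FPKM against 45.87. Glycerol-3-phosphate dehydrogenase genes, which serve glycerol synthesis, were at 7.59, 15.35 and 14.35 against 14.91 for gpdh-2 and at 15.65, 14.06 and 14.16 against 18.25 for gpdh-3. The trehalose-6-phosphate synthase genes tps-1 (9.05, 2.86 and 2.14 against 3.22) and tps-2 (57.09, 7.76 and 10.97 against 12.19) exceeded GFP in replicate 1 only, as did the trehalase gene tre-4 (12.82, 0.18 and 0.24 against 0.50). The kinase genes wnk-1 and gck-3, which act in the response to osmotic stress, were below GFP in 3 of 3 libraries, gck-3 at 0, 11.24 and 7.73 against 13.58.

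Most members were close to GFP in the deeper HZL-1 libraries. In replicates 2 and 3, 6775 members (78.6%) lay within 2-fold of GFP on the log2(FPKM + 1) scale. The median difference from GFP was -1.99, -0.37 and -0.37 in replicates 1 to 3 (-0.84 for their mean, and 0.00 after quantile normalization), and over the members above 0 in all 4 libraries it was 0.32, -0.40 and -0.41. The spread over those members was wide in replicate 1 (SD 1.72) and narrow in replicates 2 and 3 (SD 0.55 and 0.49). Replicates 2 and 3 correlated with GFP at Pearson r = 0.94 and 0.95, nearly as closely as with each other.

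**Figure D2:**
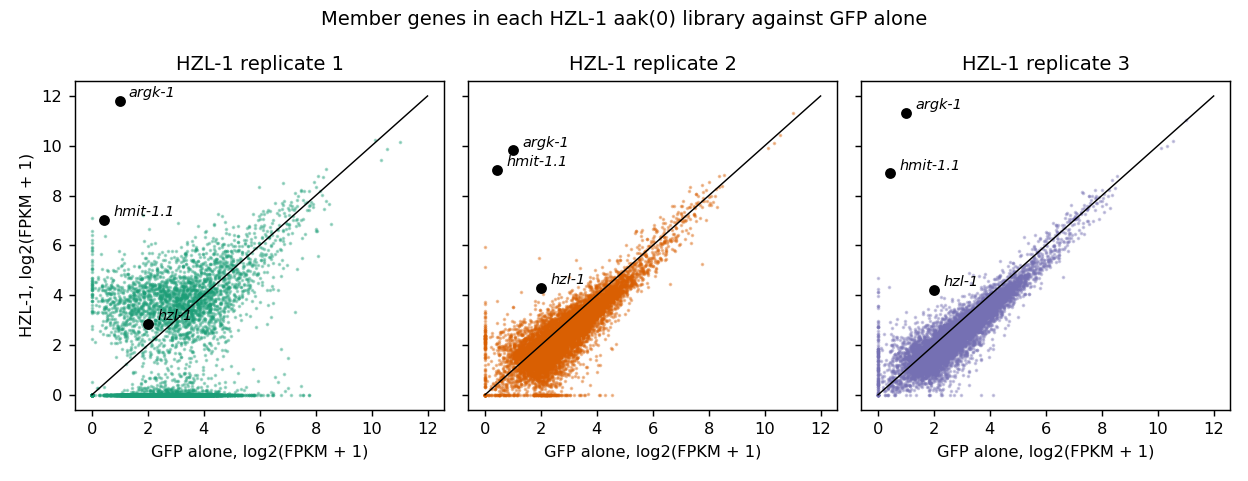
Each point is a member gene, with log2(FPKM + 1) in the GFP library on the x axis and in 1 HZL-1 aak(0) library on the y axis, 1 panel per replicate, and the line marks equality. In replicates 2 and 3 most members follow the line, argk-1 and hmit-1.1 lie farthest above it among 19 members at least 4-fold above GFP in both, whereas replicate 1 is scattered and has 5566 members at 0.

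**Figure D3:**
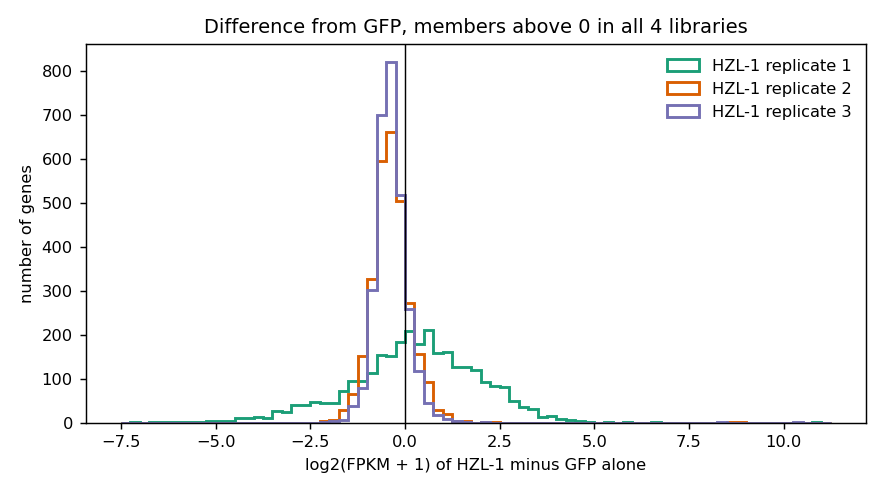
Number of genes by the log2(FPKM + 1) difference of each HZL-1 aak(0) library from GFP, over the 2929 members above 0 in all 4 libraries. Replicates 2 and 3 peak below 0, with medians of -0.40 and -0.41, and replicate 1 is broad with a median of 0.32.

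By direction alone, 257 members lay above GFP in all 3 HZL-1 libraries and 4513 below it, where 3.01% and 50.9% of all genes tested did. Replicate 1 was the highest HZL-1 library for 230 of the 257, and 3481 of the 4513 were listed at 0 in it. After centring each library on its median, the counts were 693 above and 2402 below (7.75% and 28.6% of all genes). Without replicate 1, 1194 members lay above GFP in both remaining libraries and 5742 below (14.9% of all genes were above). Without replicate 2 or replicate 3, 392 and 462 lay above and 5294 and 5037 below. No share over all genes is given for these counts or for the 5742, so they are a description. At least 2-fold above GFP in all 3 libraries were 9 members and at least 2-fold below were 273, where 0.13% and 5.49% of all genes were. At least 4-fold above were 3 members, argk-1, hmit-1.1 and the collagen gene col-3, against a background of 0.0299%, and 13 members were at least 4-fold below (2.14% of all genes). At least 16-fold above were argk-1 and hmit-1.1, and 0 members were at least 16-fold below. In replicates 2 and 3 alone, 19 members were at least 4-fold above (0.827% of all genes) and 13 at least 4-fold below (2.14% of all genes).

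Among members with a mean of at least 10 FPKM with HZL-1, the 15 with the largest excess in their lowest library were argk-1, hmit-1.1, nlp-12, flp-24, skr-5, rps-29, Y54G9A.5, ttr-6, F09F7.6, asb-1, M142.8, hzl-1, ubq-2, T28A11.2 and F09E5.7. They were selected on these values, which are a description. Replicate 1 was the highest library for 13 of the 15. The neuropeptide genes nlp-12 (73.28, 5.05 and 1.89 FPKM) and flp-24 (49.86, 2.01 and 2.2) were listed at 0 with GFP, and most of their level came from replicate 1. The ribosomal protein gene rps-29 was more even, at 68.60, 32.73 and 27.22 FPKM against 9.62, as was the ubiquitin and ribosomal fusion gene ubq-2 at 104.55, 96.46 and 85.65 against 47.73. The gene asb-1, for a germline subunit of the ATP synthase, was at 22.48, 16.78 and 14.45 against 7.52. The Skp1-related gene skr-5 was at 49.18, 5.96 and 5.29 against 1.21, and its difference of 2.56 ± 1.38 (SE) did not pass. Apart from argk-1 and hmit-1.1, limma's adjusted p in this set was 0.892 or higher.

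Among members with at least 10 FPKM with GFP, the 15 with the largest deficit in their nearest library were all listed at 0 in replicate 1, and 0 of them were called, with limma adjusted p from 0.218 to 0.892. The genes were col-117, Y106G6E.8, timm-17B.2, Y40B1A.2, hsp-16.1, F10E7.11, C27C12.3, C48B6.10, his-2, zip-5, fipr-24, Y54G2A.36, ncbp-2, Y106G6H.8 and osta-3. The mitochondrial import gene timm-17B.2 was at 0, 0.88 and 2.67 FPKM against 14.98. The cap-binding complex gene ncbp-2 was at 0, 3.16 and 6.81 against 24.63, and the bZIP gene zip-5 at 0, 3.55 and 1.84 against 14.76. All 15 were selected for lying below GFP in every HZL-1 library, so these values are a description. For osta-3 the 0 FPKM of replicate 1 (5.36 and 5.63 in the others, 18.12 with GFP) stands beside 182 reads.

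Some of the extreme values belong to near-identical gene pairs, which were looked at after their values were seen. The collagen gene col-3 was at 5.3, 5.87 and 5.66 FPKM against 0 with GFP, while col-117 was at 0, 0.02 and 0 against 11.70. Summed, the pair gave 5.3, 5.89 and 5.66 against 11.7, and the read table listed 0, 0 and 2 reads for it. The heat shock genes F44E5.4 (0, 0 and 7.84 against 22.08) and F44E5.5 (105.35, 64.63 and 53.91 against 32.03) summed to 105.35, 64.63 and 61.75 against 54.11, with 0 reads in each library. The small heat shock genes hsp-16.1 and hsp-16.11 summed to 0, 11.85 and 31.8 against 34.91, also with 0 reads. How fragments were divided within such pairs is uncertain, so the place of col-3, col-117 and hsp-16.1 among the extremes is uncertain too.

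Below GFP, 9 members passed the threshold, where 1.84% of all genes tested were called lower. Of those 185 genes, 176 were not members. The 9 members were col-94, ubl-5, srsx-25, nssp-17, nssp-60, E02H9.2, F44G4.3, T28D9.11 and W02F12.8. The collagen gene col-94 was listed at 0, 0 and 0.52 FPKM against 4.09, and ubl-5, a ubiquitin-like gene of the mitochondrial stress response, at 0, 0.51 and 0.16 against 3.89. The chemoreceptor gene srsx-25 was at 0, 0.29 and 0.71 against 4.88. The other 6 had similar levels, and in all 9 the HZL-1 libraries reached at most 0.76 FPKM and GFP lay between 3.50 and 8.29 FPKM. All 9 thus met the minimum mean of 1 FPKM only through the GFP library, where they are high. With that mean taken over all 7 libraries, 0 members were called lower, so these calls are a description. RefSeq lists E02H9.2 as a pseudogene.

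These 9 genes were low in every HZL-1 library, and all were listed at 0 in each daf-2 HZL-1 library, which enters their estimate of spread. Their standard errors were 0.18 to 0.42, against 0.85 for argk-1. The adjusted p ran from 0.000942 for T28D9.11 (-2.26 ± 0.18 SE) to 0.0354 for srsx-25 (-2.18 ± 0.34 SE). With only the 4 libraries of the comparison in the fit, 0 members were called lower, and 62 had an unadjusted p under 0.05. Without HZL-1 aak(0) replicates 1, 2 and 3 in turn the count was 31, 26 and 89, and without daf-2 replicates 1, 2 and 3 it was 3, 5 and 3. Without HZL-1 aak(0) replicate 1, 2.17% of all genes tested were called lower. No such share is given for the other left-out libraries, so their counts are a description. Over genes of all categories, 158 of 185 called lower were at 0 in all 6 HZL-1 libraries.

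Scaling changed the split of calls. It was 2 higher and 9 lower as deposited, 2 and 1 when each library was rescaled to an equal total over coding genes, 1 and 0 after centring each library, and 0 and 0 after quantile normalization, which left unadjusted p under 0.05 for 71 members above and 49 below.

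Leaving out replicate 1 raised the calls to 21 higher and 31 lower, where 0.429% and 2.17% of all genes were called, and the 9 lower genes were among the 31. Of the 21, 15 were listed at 0 in the omitted library, 17 at 0 with GFP and 20 at 0 in each daf-2 HZL-1 library. Their median level was 2.85 FPKM over replicates 2 and 3, so most were low. Genes at 0 with GFP can meet the minimum mean of 1 FPKM only through the HZL-1 libraries, where they are high. Zeros in each daf-2 library also lower the estimate of spread, so these 21 calls are a description. The major sperm protein genes msp-65 (6.25 and 4.5 FPKM in replicates 2 and 3) and msp-78 (11.46 and 10.92) were among them, both at 0 with GFP. So were the nematode-specific genes nspd-6 (5.79 and 6.15) and nspa-5 (60.86 and 25.05). Summed over each family, however, the families stood nearer to GFP. The 31 msp genes totalled 309.29 and 286.95 FPKM in replicates 2 and 3 against 259.58, and the 10 nspd genes 116.77 and 117.18 against 101.49. The 10 nspa genes totalled 108.33 and 61.46 against 51.57. Every msp, nspd and nspa gene was at 0 in replicate 1, where their reads were also 0.

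The transcript of the bait itself, hzl-1 (listed under its sequence name C44H9.4, chromosome V, 12835708 to 12839783), was at 6.25, 18.67 and 17.53 FPKM with HZL-1 and 3.04 with GFP. All 3 libraries lay above GFP, replicate 1 being the nearest. Its difference of 1.77 ± 1.12 (SE) did not pass (limma adjusted p = 0.892), and it passed under 0 of 21 alternatives. Transcripts of the array and of the chromosomal gene cannot be told apart in a value per gene. The number of reads was 381, 1624 and 1635.

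The AMPK catalytic genes were checked against the labels. Transcripts of aak-1 were at 0, 2.19 and 2.66 FPKM with HZL-1 and 4.43 with GFP, and those of aak-2 at 0, 2.11 and 3.36 and 8.32. The 0 FPKM of aak-2 in replicate 1 stands beside 153 reads (0.00214% of gene reads), against 113 and 237 (0.000712% and 0.00141%) in replicates 2 and 3. By FPKM the GFP library labelled aak(0) held more aak-2 than each HZL-1 library in aak(0), as it did for 50.9% of all genes tested. It also held more aak-2 than the 6.13, 5.31 and 7.90 FPKM of the HZL-1 libraries in daf-2 animals. The GFP library exceeded each daf-2 library for other genes too, among them eef-2, atp-1 and ctc-3, but not for hsp-90. A higher value with GFP is therefore not particular to aak-2. For aak-1 the GFP library lay above each HZL-1 library in aak(0), but within the 0, 2.85 and 6.41 FPKM of the daf-2 libraries. The HZL-1 library of the endogenous promoter labelled aak(0) held 92248 reads of aak-2, 0.384% of gene reads and rank 3 among coding genes, beside 638 of aak-1. Its gene reads held less ribosomal RNA (29.96%) than those of the intestinal libraries, so these shares are on unlike bases. Exons beyond a deletion still add to a gene's value, so these levels do not settle what the libraries' labels say. If the GFP library came from animals with AMPK, its difference from HZL-1 aak(0) would also hold a difference of genotype. Whether it did was not tested. The promoter's own gene nhx-2 was at 9.62, 1.29 and 1.43 against 1.69, above GFP in replicate 1 alone. The daf-2 gene, which the table also lists as non-coding and which is therefore no member, was at 19.50, 11.17 and 13.87 against 22.64.

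Other genes of the AMPK pathway held no called member. Of 20 listed, 18 were members, and 12 lay below GFP in 3 of 3 libraries, as did 50.9% of all genes tested. The folliculin gene flcn-1 was at 0.06, 25.99 and 20.31 FPKM against 28.80, and the triglyceride lipase gene atgl-1, an AMPK substrate in dauer, at 0, 8.15 and 7.38 against 9.44. The upstream kinase gene par-4 (LKB1) was at 0, 5.39 and 6.92 against 10.14. The regulatory subunit genes aakg-1 (24.95, 15.34 and 14.35 against 17.10) and aakb-2 (22.08, 7.45 and 7.81 against 9.54) exceeded GFP in replicate 1. The median of the list was -0.98, beside -0.84 over all members, and -2.2, -0.29 and -0.53 in replicates 1 to 3.

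Insulin signalling and dauer formation genes showed no called member (0 of 11 and 0 of 12). The FOXO gene daf-16 was at 189.55, 75.66 and 77.56 FPKM against 140.72, the Nrf gene skn-1 at 67.15, 38.78 and 39.84 against 71.76, and the kinase gene akt-1 at 27.29, 18.16 and 21.81 against 33.17. The nuclear receptor gene daf-12 was at 44.37, 25.18 and 29.07 against 47.40. In these 4 genes replicates 2 and 3 lay below GFP, whereas daf-3, a SMAD gene of the dauer pathway, was at 14.41, 3.35 and 2.9 against 2.54. Of the dauer formation genes 2 lay above GFP in 3 of 3 libraries and 7 below (3.01% and 50.9% of all genes tested).

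Abundant transcripts of the translation machinery were recovered with HZL-1 and with GFP alike. The elongation factor gene eef-1A.1 was at 1188.95, 968.20 and 957.36 FPKM against 1121.26, and eef-2 at 424.93, 310.72 and 301.76 against 308.13. Of 77 cytosolic ribosomal protein genes 0 were called, 29 lay above GFP in 3 of 3 libraries (3.01% of all genes tested did) and 58 in both replicates 2 and 3 (14.9%). Their median difference was 0.19, which is 1.03 above that of all members, but 0.05 below it (-0.05) after quantile normalization. The medians per library were 0.11, 0.27 and 0.18. For example, rps-8 was at 541.30, 442.30 and 398.46 against 330.34, and rpl-6 at 435.02, 253.54 and 264.42 against 270.23.

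Some mitochondrially encoded transcripts were among the most abundant in every library. The cytochrome oxidase gene ctc-3 was at 1139.48, 2549.84 and 2114.79 FPKM against 2075.49, ctc-1 at 692.75, 1097.88 and 1017.55 against 1284.47, and ctb-1, for cytochrome b, at 947.82, 1398.57 and 1161.57 against 1494.28. Of the 12 members 0 were called, and their median was -0.27, above that of all members by 0.57 but below it by 0.78 (-0.78) after quantile normalization. In replicates 1 to 3 it was -0.74, -0.01 and -0.22. Not all 12 were abundant, nduo-2, for a subunit of complex I, being at 1.8, 3.4 and 6.51 against 9.98. Nuclear genes of the respiratory chain and ATP synthase had 0 of 47 called and a median of -0.48, with -2.02, -0.31 and -0.27 in replicates 1 to 3. Among them atp-2 was at 170.94, 96.57 and 101.78 against 101.51.

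RNA helicase genes had a median of -1.1 over 35 members, small RNA pathway genes -1.13 over 40, and histones -1.25 over 71 (-2.46, -2.61 and -2.69 in replicate 1), each below the median of all members under all 5 scalings tried. None of them was called. In replicates 2 and 3 alone, histones were not below all members (-0.33 and -0.35, beside -0.37 in both), whereas RNA helicase genes (-0.49 and -0.42) and small RNA pathway genes (-0.48 and -0.44) were. The small RNA pathway genes hrde-1 (0, 20.84 and 22.29 against 30.53) and prg-1 (0, 25.17 and 22.05 against 28.13) were at 0 in replicate 1. So were 26 of the 40 in that list, near the share of 64.6% over all members. The DEAD-box gene cgh-1 was at 17.41, 70.80 and 69.68 against 100.57. Genes of mRNA decay and P bodies had a median of -0.78 over 39 members, with 0 called, and of -2.01, -0.47 and -0.35 in replicates 1 to 3.

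Genes of energy metabolism and protein turnover held no called member. Fat metabolism had 33 members with a median of -0.64 (-1.2, -0.29 and -0.24 in replicates 1 to 3), and fat-4, a fatty acid desaturase gene, was at 95.09, 19.01 and 18.52 FPKM against 15.71. Glycolysis, glyoxylate and TCA cycle genes had 43 with a median of -0.46 (-1.05, -0.31 and -0.27). The vacuolar ATPase had 21 with -0.40 (-1.24, -0.25 and -0.29), and the proteasome 33 with -0.84 (-2.2, -0.28 and -0.24). The low values of these lists were thus those of replicate 1. The heat shock genes hsp-1 (179.63, 140.70 and 150.62 against 152.02) and hsp-90 (261.42, 255.16 and 250.65 against 297.69) were even across libraries. Of 21 stress and DAF-16 target genes 0 were called, and hsp-12.6, a small heat shock gene, was at 0, 82.38 and 68.59 against 64.71.

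**Figure D4:**
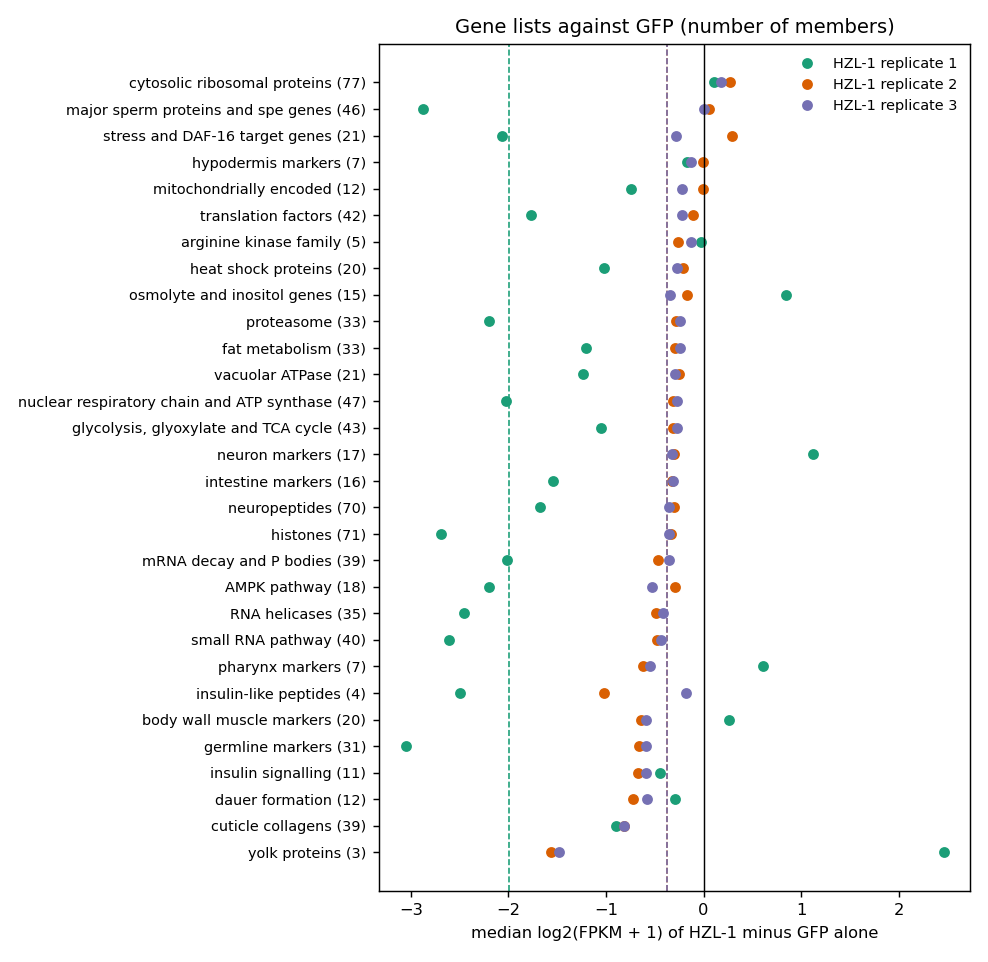
Median log2(FPKM + 1) difference from GFP over the members of each of 30 gene lists, 1 point per HZL-1 aak(0) library, with the number of members in brackets and dashed lines at the median of all members in each library. Replicates 2 and 3 lie close together for most lists, and replicate 1 ranges from far below them (germline markers, -3.05) to far above (yolk proteins, 2.46).

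Tissue markers were examined because the bait was driven in the intestine while RNA came from whole animals. Of 31 intestine markers 16 were members, 0 were called, 1 (act-5, an intestinal actin gene, at 8.89, 7.16 and 8.05 FPKM against 6.41) lay above GFP in 3 of 3 libraries and 7 below (3.01% and 50.9% of all genes tested), while the other 15 had a mean under 1 FPKM. Their summed level was 106.6, 98.34 and 93.98 FPKM with HZL-1 and 117.4 with GFP. The intermediate filament gene ifb-2 was at 0, 9.53 and 6.41 against 12.63 and the proton pump gene vha-6 at 4.37, 12.12 and 9.79 against 9.45, so both were detected in replicates 2 and 3 and in the GFP library.

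Markers of other tissues were present too. Summed body wall muscle markers (20 members) were at 595.1, 192.8 and 199.8 FPKM against 325.0, with the myosin gene unc-54 at 120.76, 14.73 and 14.38 against 26.13. Neuron markers (17 members) summed to 376.5, 160.5 and 150.4 against 202.6, and pharynx markers (7 members) to 110.2, 31.12 and 28.26 against 42.60. In each of these lists replicate 1 was the highest of the 4 libraries. For germline markers the sum was instead lowest in replicate 1. Their sum over 31 members was 140.7, 671.5 and 687.4 against 1099, and the RNA-binding protein gene gld-1 was at 0.66, 61.25 and 57.04 against 93.44. Their median of -1.41 was below that of all members under all 5 scalings, and in replicates 2 and 3 it was -0.66 and -0.59, beside -3.05 in replicate 1. Sperm genes were listed at 0 in replicate 1 for all 46 members and summed to 391.1 and 353.1 in replicates 2 and 3 against 343.4. Yolk protein genes, made in the adult intestine, were highest in replicate 1, vit-2 being at 51.26, 0.18 and 0.24 against 2.48. The share of these tissues in the differences from GFP was not tested.

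Among secreted signals, 70 neuropeptide genes were members, 0 were called and their median was -0.58 (-1.68, -0.30 and -0.35 in replicates 1 to 3). The abundant nlp-99 was at 79.72, 6.92 and 6.95 FPKM against 15.43 and nlp-49 at 0, 21.64 and 18.41 against 53.83. Insulin-like peptide genes were mostly below the filter, with 4 of 38 as members, all at 0 in replicate 1. Cuticle collagens had 39 members of 157, with 1 (col-94) called lower and a median of -0.78 (-0.90, -0.82 and -0.82). Hypodermis markers had 7 members with a median of 0.20 when libraries were averaged per gene, but -0.17, -0.01 and -0.13 in replicates 1 to 3.

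Chromosome and gene span, which did not enter the choice of members, were then compared. By chromosome, the median difference from GFP lay between -0.93 (I) and -0.79 (V) on the autosomes and was -0.48 on X (784 members). In replicate 1, 49.4% of members on X were listed at 0, against 64.9% to 68.2% on the autosomes, while the medians of replicates 2 and 3 on X were -0.40 and -0.46, slightly below those of the autosomes (-0.38 to -0.35 and -0.39 to -0.36). Zeros in replicate 1 were also commoner in short genes. They made up 81.0% of members in the quartile with a gene span of 162 to 1398 bp, then 72.1% and 61.8%, and 43.5% in the quartile of 4902 to 81718 bp. Over the 2929 members above 0 in all 4 libraries, Spearman's rho of the difference with gene span was -0.11, -0.22 and -0.19 in replicates 1 to 3, a description across genes whose libraries share the GFP value.

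By level with GFP, the lowest members lay above GFP in replicates 2 and 3 and the rest below. In the lowest decile (0 to 1.61 FPKM) the median difference was 0.00, 0.37 and 0.26 in replicates 1 to 3, and in the highest (20.5 FPKM and over) -0.89, -0.47 and -0.48. The GFP level is part of both quantities, so an opposite trend is built in. It also entered the choice of members. A member under 1 FPKM with GFP could meet the minimum mean of 1 FPKM only with a higher HZL-1 mean. The values of the lowest decile are therefore partly set by that rule. From the fourth to the highest decile, replicates 2 and 3 stayed between -0.51 and -0.37. Replicate 1 was lowest, at -3.79, in the ninth decile, where 49.4% of members were listed at 0, and nearer to GFP in the highest, which held the fewest zeros.

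**Figure D5:**
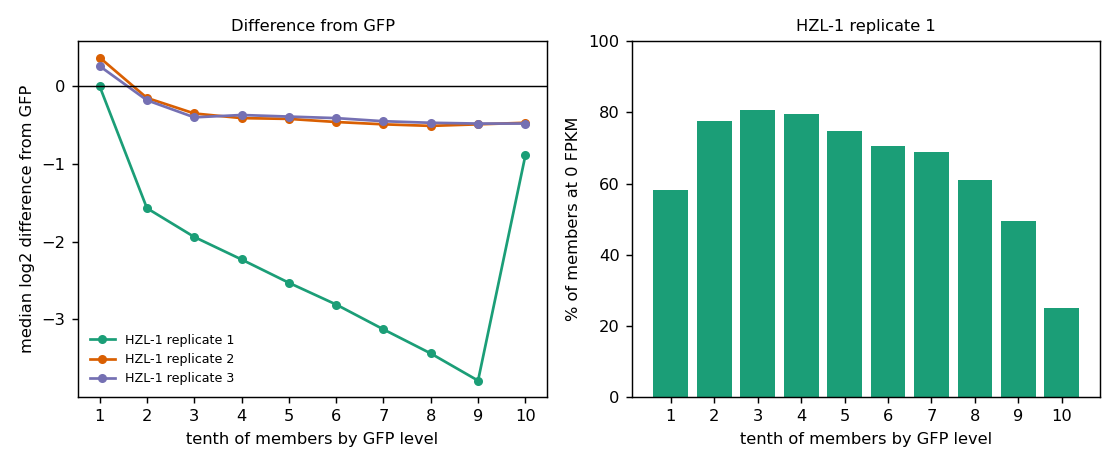
Left, median log2(FPKM + 1) difference from GFP by decile of members ranked on their GFP level, 1 line per HZL-1 aak(0) library. Right, the percentage of members listed at 0 FPKM in replicate 1 by the same deciles, highest at 80.7% in the third decile and lowest in the highest decile.

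At the edge of the inclusion rule, the members with a mean nearest to 1 FPKM included ZC13.1 (0, 1.83 and 1.37 FPKM against 0.80), bltp-3B (0.03, 1.59 and 1.3 against 1.09) and faah-1 (0, 1.54 and 0.55 against 1.91). Just under it lay F15B9.8 (0, 1.54 and 0.14 against 2.31), col-45 (0, 0.64 and 1.48 against 1.87) and del-8 (0, 0 and 1.39 against 2.60).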

How the data were processed

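The submitters' processing notes name the build WBcel235, DESeq2 1.30.1, RSEM, STAR 2.7.1a and Trimmomatic 0.35. Neither their settings nor any use of strand is given in the sources used here. FPKM values per gene were deposited for 7 libraries. A second deposited table gave a signal per gene, which in the 3 HZL-1 aak(0) libraries was in every case (100%) a whole multiple of 1 step per library within a tolerance of 0.01, and so gave the reads. The authors deposited raw counts for the endogenous-promoter library, where 62.14% of reads named no gene and were left out. A floor of 3 reads equals 0.179 to 0.419 CPM in the HZL-1 aak(0) libraries. The GFP library had no reads of this kind, so the comparison could not be tested as counts, and 4 per-sample columns of other libraries were not used.

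Values were turned into log2(FPKM + 1) and fitted by limma 3.58.1 (R 4.3.3), including a variance trend, on a scale that understates changes of low genes, over 7 libraries in 3 groups (4 residual degrees of freedom). The fit held the 10035 genes of all categories whose mean over the 4 libraries reached 1 FPKM, with Benjamini-Hochberg adjustment and a threshold of 0.05. The procedure was run on simulated data with normal noise, in which all libraries of a gene, GFP included, had the same spread. That run cannot show whether the GFP library varies like the others, nor how the zeros of replicate 1 affect the calls. The labels do not state separate cultures for the libraries of a group, and p-values then reflect only how these libraries scatter, which may be technical. Replicate numbers shared with the daf-2 libraries did not pair them (correlations of deviations -0.13, -0.08 and -0.10).

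Members, gene lists and tests were chosen with earlier results of these data known. Named were the targeted genes, all called members, the 15 largest smallest-library excesses and deficits at 10 FPKM or more, the 5 most abundant members, the 3 most abundant of each list with paralogs of called genes, and genes at the edge of the rule. From these sets the text names those with values of interest and counts the rest, and further list members were named for their known roles after their values were seen. Gene span replaced protein length, which was not used here. Of sequence names and names turned into dates, 1116 and 11 were replaced through RefSeq (WBcel235), which matched 8518 members. Alternatives covered pseudocounts, filters, scalings, fits and left-out libraries.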

Additional observations from a re-analysis of the deposited data

Results flagged for a closer look

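Signals outside the main comparison stood far above the limit that a count of 0 allows (3 reads) in the single library of HZL-1 under its own promoter in aak(0). It held 8965110 reads of argk-1 (37.3% of gene reads, exact 95% binomial interval 37.28 to 37.32%) and 303233 reads of hmit-1.1 (1.26%, 1.257 to 1.266%). These are the same 2 genes that were called higher than GFP with intestinal HZL-1, which is a description and not a test of those calls. Genes with far fewer reads also cleared 3 reads, among them aak-1 with 638 and E02H9.2, called lower than GFP, with 196. Clearing that limit therefore sets no gene apart. The library also held 92248 reads of aak-2 (0.384%, 0.3813 to 0.3863%), a gene that its label gives as mutated, against 153, 113 and 237 reads in the intestinal HZL-1 aak(0) libraries. Intervals cover counting error only, no control library was counted in that table, and the source of these reads was not tested.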

How the results depend on the processing

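The 2 calls above GFP became 0 with a minimum mean of 5 FPKM, quantile normalization, no variance trend or 4 libraries in the fit, and 1 with the replicate block or, chosen after seeing the data, with each library centred. Leaving out single libraries gave 1 to 21. The 9 calls below became 1 with a pseudocount of 0.1, 36 with a pseudocount of 10, 20 with no filter, 0 with the 5 FPKM minimum, with the mean taken over all 7 libraries or with members only in the fit, 0 with quantile normalization, 1 rescaled over coding genes, 0 without a trend, 2 with robust estimation, 0 with 4 libraries, 1 with the replicate block and 0 after centring. Leaving out single libraries gave 3 to 89. The median over members (-0.84) was -1.78 and -0.22 with pseudocounts of 0.1 and 10, 0.00 after quantile normalization, -0.46 with median-of-ratios scaling, -1.16 as TPM, -1.57 rescaled over coding genes, and -1.13 to -0.37 with a library left out. The count above GFP in all 3 libraries (257) was 133 as TPM, 544 rescaled over coding genes, 1732 after quantile normalization and 693 after centring, and 392 to 1194 with a library left out. The count below (4513) was 2144 after quantile normalization and 2402 after centring. At 4-fold or more, the 3 members above became 23 with a pseudocount of 0.1 and 3 to 19 with a library left out, and the 13 below became 55 and 0 with pseudocounts of 0.1 and 10 and 13 to 135 with a library left out. The difference of nhx-2 (0.53) turned to -0.19 without HZL-1 aak(0) replicate 1, within -0.19 to 0.92 over the left-out libraries. With the replicate block, argk-1 had a limma adjusted p of 0.0315 and hmit-1.1 of 0.156, although the shared numbers do not pair these libraries. The causes of these shifts were not tested, and for most settings no share over all genes is given. The single GFP library of unknown depth and the zeros of replicate 1 limit the comparison.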
